A study of Mus musculus with 12 samples.

Results

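The redox genes described here were 4 genes whose products make oxidants or are needed to make them (Duox2, Duoxa2, Nox1 and Nos2) and 6 genes of antioxidant enzymes (Gpx1, Gpx2, Hmox1, Sod2, Gclc and Txnrd1). A probe set is the group of array probes that reads 1 transcript, and a gene was read only from a probe set that the platform annotation gives its symbol and no other. Each of the 10 genes had 1 such probe set, and they are 10 of the 18820 genes that could be tested. The rule of choice used gene names and no measured value, but the genes were listed with earlier results of these data known. A further probe set is annotated to Duoxa1 and Duoxa2 together and was left out by this rule. It read between 2.86 and 3.32 on the log2 scale on the 12 arrays.

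Proximal jejunum was taken from 12 mice in 4 groups of 3, and the RNA of each mouse was hybridised to 1 Affymetrix array. Wild-type mice were C57BL6/J, and knockout mice were B6.129-Tlr2tm1Kir/J, which lack the bacterial lipoprotein receptor TLR2 in every cell. Mucositis, an injury of the gut lining, was induced in 1 group of each genotype with intraperitoneal methotrexate, an antifolate that blocks DNA synthesis, at 40 mg per kg body weight per day for 4 days, and tissue was taken on day 7. The other group of each genotype was untreated, with no injection and no day of sacrifice recorded, and no age is given for any mouse.

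NADPH oxidases and dual oxidases of the gut epithelium pass electrons from NADPH to oxygen and release superoxide or hydrogen peroxide, which is part of the defence against microbes at the mucosal surface. Inducible nitric oxide synthase makes nitric oxide and is found in inflamed epithelium and in macrophages. On the other side, superoxide dismutases, glutathione peroxidases, the glutathione-making ligase, thioredoxin reductase and haem oxygenase remove oxidants or repair what they damage, and the transcription factor NRF2 is known to drive several of their genes.

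Values are log2 signals, where a difference of 1 is a doubling, and are given per mouse in the order of replicates 1, 2 and 3. The signal of a probe set was compared between mice, and a higher signal of 1 probe set than another was not read as higher expression. Means over several genes were likewise compared between mice. Where genes were set against each other, each was first centred on its own mean or on untreated wild-type mice. A percentile of the array was used only to mark low signals. The Tlr2 probe set read 4.37 to 4.65 in wild-type and 4.36 to 6.18 in knockout mice, so it was not lower in the knockout. Whether these probes lie inside the targeted region is unknown, so the signal is no check of the genotypes, which are given as labelled. Genes of the exocrine pancreas were high on 7 arrays, where the mean of 11 acinar genes was 11.8 to 12.3, and low on the other 5, at 3.71 to 5.51. The 7 arrays were replicates 2 and 3 of untreated wild type, untreated knockout and treated knockout, and replicate 2 of treated wild type. In bulk tissue, fewer cells of a type and less RNA per cell cannot be told apart.

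**Figure D1:**
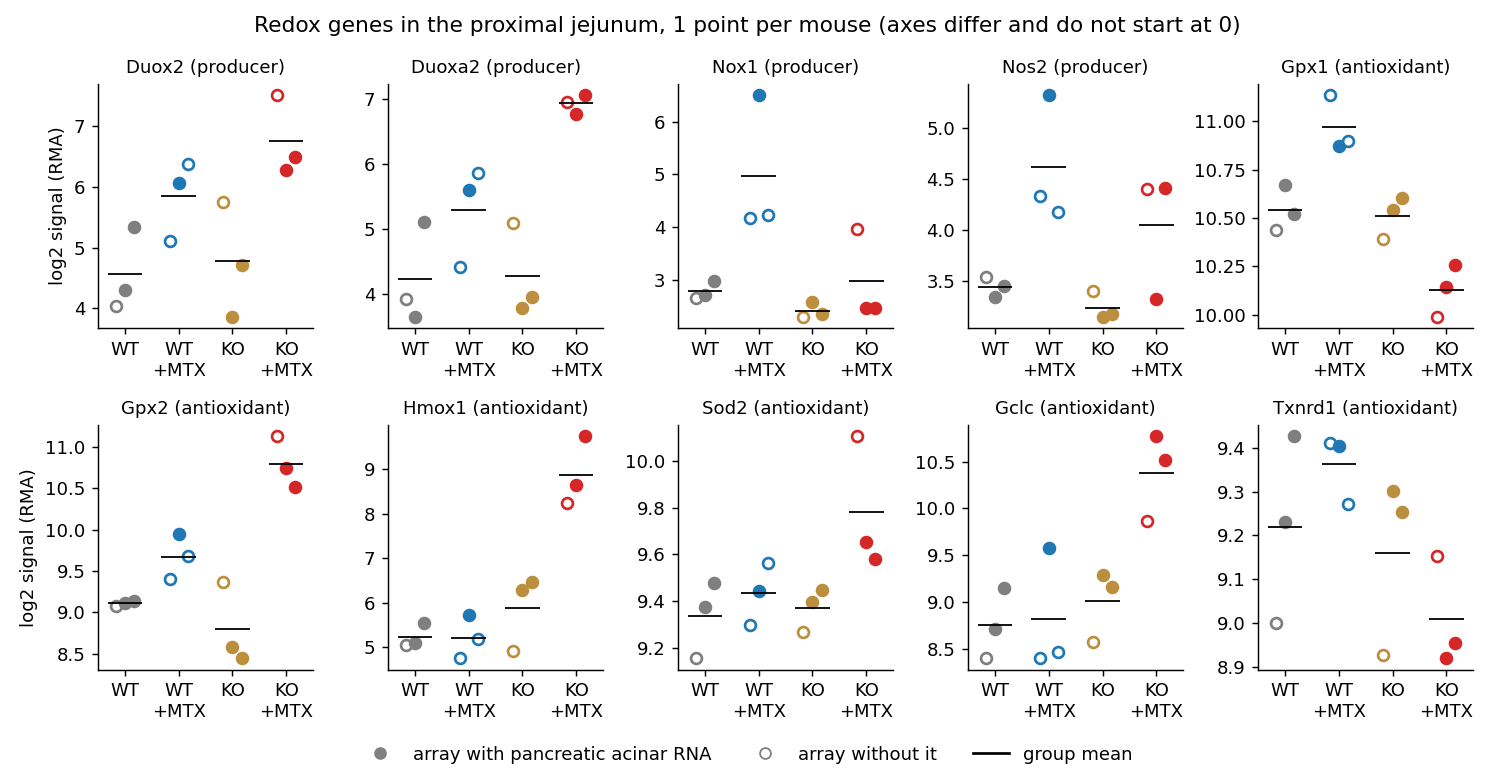
Log2 signal of each redox gene, 1 point per mouse, in wild-type (WT) and TLR2 knockout (KO) mice without and with methotrexate (MTX). Horizontal lines are group means, filled points are the 7 arrays with pancreatic acinar RNA, and open points are the other 5. Gpx2, Hmox1 and Gclc are highest in treated knockout mice, Gpx1 is lowest there, and Nox1 is highest in treated wild-type mice.

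With methotrexate in knockout mice, 5 of the 10 redox genes rose, namely Duox2, Duoxa2, Gpx2, Hmox1 and Gclc, and 1, Gpx1, fell (limma, Benjamini-Hochberg adjusted p under 0.05 over all 18820 genes). The other 4, Nox1, Nos2, Sod2 and Txnrd1, did not pass. Over all genes tested, 18.8% were called higher and 16.0% lower in that comparison. In wild-type mice 0 of the 10 passed limma's test, against 0.0744% of all genes, while 6 of the 10 had an unadjusted p under 0.05, against 11.7% of all genes. Weighting the arrays by their quality called 6 of the 10 in wild-type mice, against 9.67% of all genes. Between untreated genotypes 0 of the 10 were called by limma, against 0.0106% of all genes, and 0 had an unadjusted p under 0.05, against 6.19%. The 2 methotrexate comparisons and the 2 genotype comparisons share groups of mice, so their values are given side by side without a measure of likeness.

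**Figure D2:**
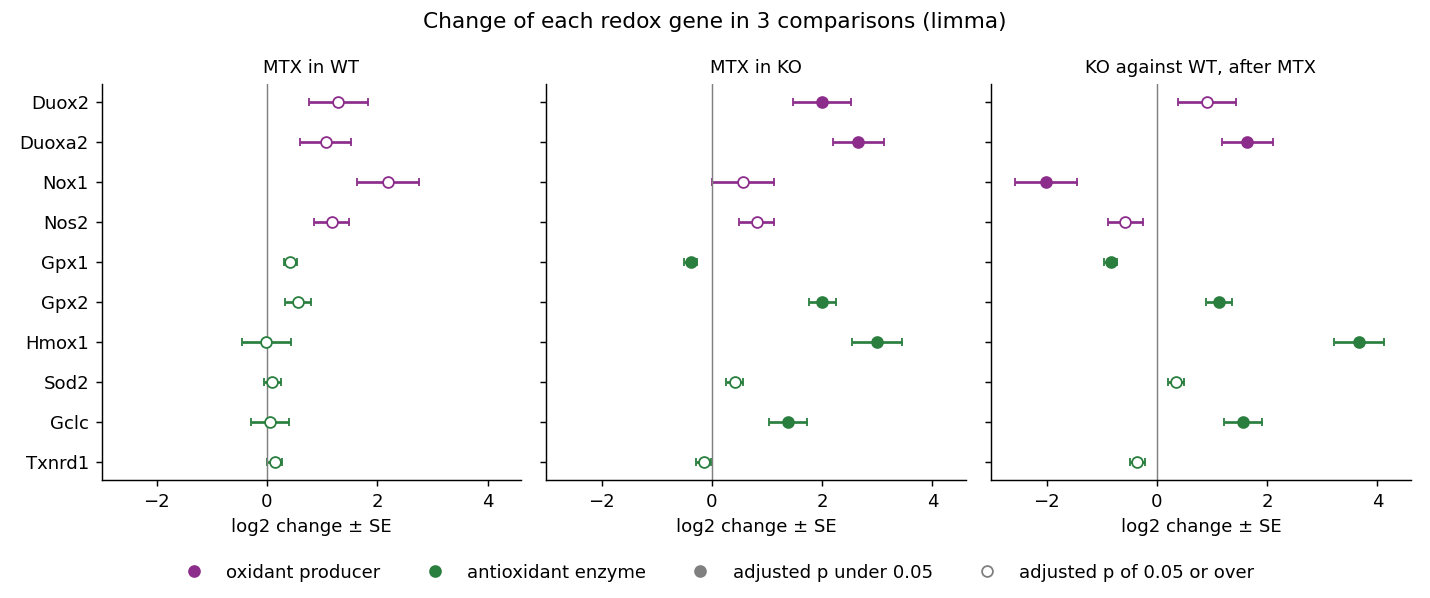
Log2 change of each redox gene with its standard error in 3 comparisons, from 3 mice per group. Filled points passed limma's test at an adjusted p under 0.05, purple marks oxidant producers and green marks antioxidant enzymes. In knockout mice 6 points are filled in the methotrexate comparison, and in wild-type mice none is.

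Duox2 encodes the dual oxidase that makes hydrogen peroxide at the apical face of the epithelium. It read 4.03, 4.29 and 5.34 in untreated wild-type mice and 5.11, 6.06 and 6.38 after methotrexate. In knockout mice it read 5.75, 3.85 and 4.72 untreated and 7.52, 6.27 and 6.49 after methotrexate. The untreated and treated knockout mice did not overlap, whereas 1 untreated wild-type mouse was above the lowest treated one. The rise in knockout mice was 1.99 ± 0.53 (SE), or 3.98-fold, with a limma adjusted p of 0.0120. It was 1.53 with an adjusted p of 0.0536 without replicate 2 of the untreated knockout. In wild-type mice the difference was 1.30 ± 0.53 (adjusted p = 0.384), and the difference between the genotypes' responses was 0.69 with a 95% interval of -1.03 to 2.42. Among the knockout mice of each treatment, the one without acinar RNA held the highest Duox2 signal.

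Duoxa2 encodes the maturation factor that takes DUOX2 protein out of the endoplasmic reticulum. Its signal was 3.93, 3.64 and 5.10 in untreated wild-type mice and 4.41, 5.60 and 5.86 in treated ones. Knockout mice read 5.09, 3.79 and 3.96 untreated and 6.96, 6.77 and 7.07 after methotrexate. All 3 treated knockout mice were above the other 9 mice, and they lay close together. Duoxa2 rose by 2.65 ± 0.46 in knockout mice, or 6.29-fold (limma adjusted p = 0.00084). In wild-type mice the difference was 1.07 ± 0.46 (adjusted p = 0.411). After methotrexate it was 1.64 ± 0.46 higher in knockout than in wild-type mice (adjusted p = 0.0148). That difference was 1.20 with an adjusted p of 0.0636 without replicate 1 of the treated wild type, and 1.32 on the 7 arrays with acinar RNA, where treated wild type is 1 mouse, which did not pass. On the 5 arrays without it, where each knockout group is 1 mouse, the treated knockout mouse was above the untreated one by 1.77 for Duox2 and by 1.87 for Duoxa2.

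Duox2 and Duoxa2 are head-to-head neighbours on chromosome 2, read in opposite directions, and both rose in the treated knockout, so the stretch between them is shown. In RefSeq (build GRCm38.p6) their start sites in the promoter table are 673 bases apart, and the outermost annotated base of Duox2 is 160 bases from the Duoxa2 start. The stretch chr2:122298725-122298899 is given on the plus strand, in the reading direction of Duoxa2, and its first 16 bases lie within the annotated Duox2 gene. Capitals mark a match to the AP-1 element TGANTCA, 168 bases before the Duoxa2 start.
Duox2 to Duoxa2: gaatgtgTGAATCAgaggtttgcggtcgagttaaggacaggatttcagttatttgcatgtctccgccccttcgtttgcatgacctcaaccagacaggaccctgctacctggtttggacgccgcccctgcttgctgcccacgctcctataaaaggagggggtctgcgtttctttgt
The window of 300 bases around the Duoxa2 start held this AP-1 match and none of the other motifs searched. That of Duox2 held none, but it surrounds the start 673 bases from that of Duoxa2. It lies inside the annotated Duox2 gene and does not reach its outermost base. The AP-1 match is outside that window, within the 16 bases shared with the annotated Duox2 gene. Of all 32851 promoter windows of this length, 7.81% hold the AP-1 element. A match describes the letters in the window and no binding was measured.

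Nox1 encodes the superoxide-producing NADPH oxidase of the gut epithelium. It read 2.65, 2.70 and 2.97 in untreated wild-type mice and 4.17, 6.52 and 4.23 after methotrexate. Knockout mice read 2.28, 2.57 and 2.33 untreated and 3.97, 2.47 and 2.46 after methotrexate. Untreated signals were near or below the 25th percentile of an array, which was 2.87 to 3.05. All 3 treated wild-type mice were above the other 9 mice, and 1 treated knockout mouse came close to them. After methotrexate, Nox1 was lower in knockout than in wild-type mice, with a difference of -2.01 ± 0.56 (limma adjusted p = 0.0150). In wild-type mice the methotrexate difference was 2.20 ± 0.56, or 4.59-fold, and did not pass (adjusted p = 0.186), and in knockout mice it was 0.57 ± 0.56 (adjusted p = 0.494).

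The Nox1 difference between treated genotypes depended on which mice were compared. It was -1.23 without replicate 2 of the treated wild type (adjusted p = 0.0274), which held the signal of 6.52. It was -1.76 with an adjusted p of 0.0606 without replicate 2 of the treated knockout, -1.75 with 0.0570 without its replicate 3, and kept its size with 0.0756 when only the treated groups were fitted. On the 7 arrays with acinar RNA it was -4.05, where treated wild type is the 1 mouse at 6.52 and both treated knockout mice, at 2.47 and 2.46, were below the 25th percentile of an array. On the 5 without it the difference was -0.23 and did not pass, where treated knockout is the 1 mouse at 3.97. The treated knockout mouse with the high Nox1 signal was replicate 1, which had no acinar RNA and the highest mean of 10 neutrophil genes, 6.62 against 4.48 and 4.62 in the other two. The part of either in the Nox1 signal was not tested.

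Nos2, the inducible nitric oxide synthase, read 3.54, 3.34 and 3.45 in untreated wild-type mice and 4.34, 5.33 and 4.18 after methotrexate. In knockout mice it read 3.40, 3.14 and 3.17 untreated and 4.40, 3.33 and 4.41 after methotrexate. Treated and untreated wild-type mice did not overlap, whereas 1 treated knockout mouse was within the untreated range. The methotrexate difference was 1.17 ± 0.32 in wild-type mice (limma adjusted p = 0.208) and 0.81 ± 0.32 in knockout mice (adjusted p = 0.0734), so neither passed. Some alternatives changed this. Array weights gave 1.13 in wild-type mice (adjusted p = 0.0178) but 0.40 in knockout mice (adjusted p = 0.240). Without replicate 2 of the treated knockout, the knockout difference was 1.17 (adjusted p = 0.0091). Between treated genotypes Nos2 differed by -0.57, with a 95% interval of -1.31 to 0.17, which did not pass. It was -0.21 without replicate 2 of the treated wild type and -0.21 without replicate 2 of the treated knockout, the mice with the highest and the lowest treated Nos2 signal. With array weights it was -0.91 and passed (adjusted p = 0.0171), and it was -1.46 on the arrays with acinar RNA, where treated wild type is 1 mouse.

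Gpx2 encodes the glutathione peroxidase of the gastrointestinal epithelium, which reduces hydrogen peroxide and lipid peroxides with glutathione. It read 9.08, 9.12 and 9.13 in untreated wild-type mice and 9.40, 9.94 and 9.68 after methotrexate. Knockout mice read 9.36, 8.58 and 8.44 untreated and 11.13, 10.75 and 10.52 after methotrexate. The treated knockout mice were the highest 3 of the 12. Gpx2 rose by 2.0 ± 0.24 in knockout mice, or 4.01-fold (limma adjusted p = 4.8e-05), against a difference of 0.56 ± 0.24 in wild-type mice (adjusted p = 0.396). After methotrexate it was 1.12 ± 0.24 higher in knockout than in wild-type mice (adjusted p = 0.0027), and 0.69 higher on the 7 arrays with acinar RNA, where treated wild type is 1 mouse.

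Hmox1 encodes the inducible haem oxygenase, which splits haem into biliverdin, carbon monoxide and iron. Its signal was 5.04, 5.10 and 5.55 in untreated wild-type mice and 4.75, 5.72 and 5.18 in treated ones. Knockout mice read 4.92, 6.28 and 6.46 untreated and 8.25, 8.65 and 9.75 after methotrexate. The treated knockout mice were again above all 9 others, and the wild-type groups overlapped throughout. Hmox1 had the largest change of the 10 genes in knockout mice, a rise of 2.99 ± 0.45, or 7.96-fold (limma adjusted p = 0.00029). In wild-type mice the difference was -0.01, with a 95% interval of -1.05 to 1.02. Treated knockout mice exceeded treated wild-type mice by 3.67 ± 0.45, or 12.7-fold (adjusted p = 5.2e-05).

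Gclc encodes the catalytic subunit of glutamate-cysteine ligase, the rate-limiting step of glutathione synthesis. It read 8.39, 8.71 and 9.15 in untreated wild-type mice and 8.40, 9.58 and 8.46 after methotrexate. Knockout mice read 8.57, 9.28 and 9.16 untreated and 9.86, 10.77 and 10.51 after methotrexate. The treated knockout mice did not overlap any other group. Gclc rose by 1.38 ± 0.35, or 2.60-fold, in knockout mice (limma adjusted p = 0.0089) and was 1.57 ± 0.35 higher in knockout than in wild-type mice after methotrexate (adjusted p = 0.0037). In wild-type mice the difference was 0.06 ± 0.35 (adjusted p = 0.958).

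Gclc and Hmox1 also differed between mice of a group along with the pancreatic RNA. In each of the 4 groups the arrays with acinar RNA had the higher Gclc and Hmox1 signals. For Gclc, treated knockout mice read 10.51 and 10.77 with acinar RNA and 9.86 without, and untreated knockout mice 9.16 and 9.28 with and 8.57 without. For Hmox1, untreated knockout mice read 6.28 and 6.46 with acinar RNA and 4.92 without. The Hmox1 difference with methotrexate in knockout mice was 2.83 on the arrays with acinar RNA, from 2 mice a group, and 3.33 on those without, from 1 mouse against 1.

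Gpx1, the glutathione peroxidase found in most cells, was the antioxidant enzyme that fell. It read 10.44, 10.67 and 10.52 in untreated wild-type mice and 11.14, 10.87 and 10.90 after methotrexate. Knockout mice read 10.39, 10.54 and 10.61 untreated and 9.99, 10.14 and 10.26 after methotrexate. The treated wild-type mice were above and the treated knockout mice below all untreated mice. In knockout mice Gpx1 fell by 0.38 ± 0.12 (limma adjusted p = 0.0235), and in wild-type mice the difference was 0.43 ± 0.12 (adjusted p = 0.206). Between treated genotypes it was lower in the knockout, with a change of -0.84 ± 0.12 (adjusted p = 0.00013).

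The fall of Gpx1 in knockout mice was close to the threshold, unlike its difference between treated genotypes. With the replicate number as a block in a fit of the 2 knockout groups, the adjusted p was 0.0522, and without the block in those groups it was 0.0549. Quantile normalisation gave -0.29 (adjusted p = 0.0809). Leaving out replicate 1 or 2 of the treated knockout gave -0.31 and -0.39, with adjusted p-values of 0.0767 and 0.0548. Leaving out replicate 2 or 3 of the untreated knockout gave -0.37 and -0.34, with adjusted p-values of 0.0684 and 0.0824. The 5 arrays without acinar RNA gave -0.41, from 1 mouse against 1.

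Sod2, the mitochondrial superoxide dismutase, read 9.15, 9.37 and 9.48 in untreated wild-type mice and 9.30, 9.44 and 9.56 after methotrexate. In knockout mice it read 9.27, 9.39 and 9.45 untreated and 10.11, 9.65 and 9.58 after methotrexate. The knockout groups did not overlap, but replicate 1 stood above the other treated knockout mice, and the difference of 0.41 ± 0.15 narrowly missed limma's threshold (adjusted p = 0.0505). It passed in 7 of 25 alternative analyses, among them quantile normalisation (0.51, adjusted p = 0.0095). Without replicate 1 of the treated knockout it was 0.25 (adjusted p = 0.168), and on the arrays with acinar RNA, which leave out that mouse, it was 0.20 (adjusted p = 0.203).

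Txnrd1, the cytosolic thioredoxin reductase, read 9.0, 9.23 and 9.43 in untreated wild-type mice and 9.41, 9.41 and 9.27 after methotrexate. In knockout mice it read 8.93, 9.30 and 9.25 untreated and 9.15, 8.92 and 8.95 after methotrexate. Treated knockout mice were below treated wild-type mice without overlap, with a difference of -0.35 (95% interval -0.67 to -0.04) and a limma adjusted p of 0.0639. This comparison passed in 8 of 24 alternative analyses. In knockout mice the methotrexate difference was -0.15 ± 0.14 (adjusted p = 0.443).

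Oxidant producers and antioxidant enzymes were then set against each other as the mean log2 difference of each mouse from the untreated wild-type mean. The 4 producers averaged 1.43 ± 0.69 (SD, n = 3) in treated wild-type mice, -0.08 ± 0.41 in untreated knockout mice and 1.43 ± 0.51 in treated knockout mice. The 6 antioxidant enzymes averaged 0.21 ± 0.22, 0.09 ± 0.19 and 1.13 ± 0.09 in the same groups. The producer means thus had overlapping ranges in treated mice of both genotypes. The mean of the 6 antioxidant enzymes was higher in each treated knockout mouse than in all other mice. Producers minus antioxidants was 0.72 to 1.67 in treated wild-type mice and -0.16 to 0.91 in treated knockout mice, so these groups overlapped. These means are a description, because members within a role differed, with Nox1 high in treated wild-type mice and Duoxa2 in treated knockout mice. Among the antioxidant enzymes, Hmox1, Gpx2, Gclc and, narrowly, Sod2 were above all other mice in treated knockout mice. Gpx1 was below all other mice there, and Txnrd1 was below the treated wild-type mice. The share of all genes that separate the treated knockout mice in this way is not given here. By limma, 8048 of the 18820 genes had an unadjusted p under 0.05 with methotrexate in knockout mice.

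**Figure D3:**
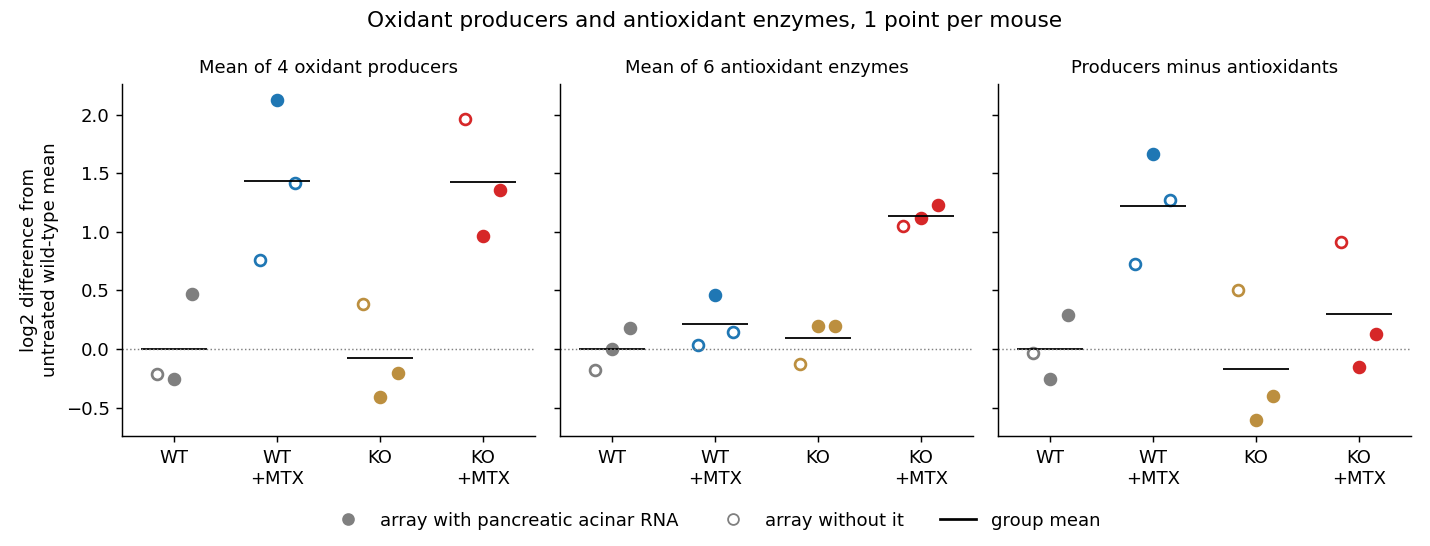
Mean log2 difference from the untreated wild-type mean for the 4 oxidant producers, the 6 antioxidant enzymes, and the first minus the second, 1 point per mouse with group means as lines. The mean of the antioxidant enzymes lies between 1.05 and 1.23 in treated knockout mice, although Gpx1 fell there, and at 0.46 or below in every other mouse. The producer means overlap between the treated genotypes.

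By median, the 4 producers differed by 1.23 with methotrexate in wild-type mice and by 1.40 in knockout mice. The antioxidant enzymes differed by 0.12 and 0.89, and the median over all genes was -0.00 and -0.02. Of the producers 2 rose in knockout mice, and of the antioxidant enzymes 3 rose and 1 fell.

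After methotrexate, 4 of the 10 genes were higher in knockout than in wild-type mice, namely Duoxa2, Gpx2, Hmox1 and Gclc, and 2 were lower, Nox1 and Gpx1. Over all genes, 20.2% were higher and 16.8% lower in that comparison. The response to methotrexate itself differed between the genotypes for 3 of the 10, with 2 higher in the knockout and 1 lower, against 11.8% and 12% of all genes. These were Hmox1, with a difference in response of 3.00 ± 0.63 (limma adjusted p = 0.0047), Gpx2 with 1.44 ± 0.33 (adjusted p = 0.0082), and Gpx1 with -0.81 ± 0.16 (adjusted p = 0.0036). For Gpx1 the value on the 5 arrays without acinar RNA, with 1 mouse in 3 of the groups, was -0.99 and did not pass. Differences in response of 1.59 ± 0.65 for Duoxa2 (adjusted p = 0.110), -1.63 ± 0.80 for Nox1 (adjusted p = 0.184) and 1.32 ± 0.49 for Gclc (adjusted p = 0.0776) did not pass. The Nox1 difference in response was -0.86 without replicate 2 of the treated wild type, and it passed with array weights (-1.89, adjusted p = 0.0167). It was -3.67 on the arrays with acinar RNA, where treated wild type is 1 mouse, and 0.14 on those without.

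The wider redox system was read through 8 lists of 83 further genes, of which 73 were measured. In knockout mice 18 rose and 23 fell with methotrexate, in wild-type mice 0 were called by limma, and between untreated genotypes 0 were called. An unadjusted p under 0.05 was reached by 9 of the 73 in wild-type mice, against 11.7% of all genes, and by 4 of the 73 between untreated genotypes, against 6.19%. Between treated genotypes 18 were higher and 30 lower in the knockout, and the response differed between genotypes for 34, with 14 higher and 20 lower. The shares of all genes called were those given above for the same comparisons.

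**Figure D4:**
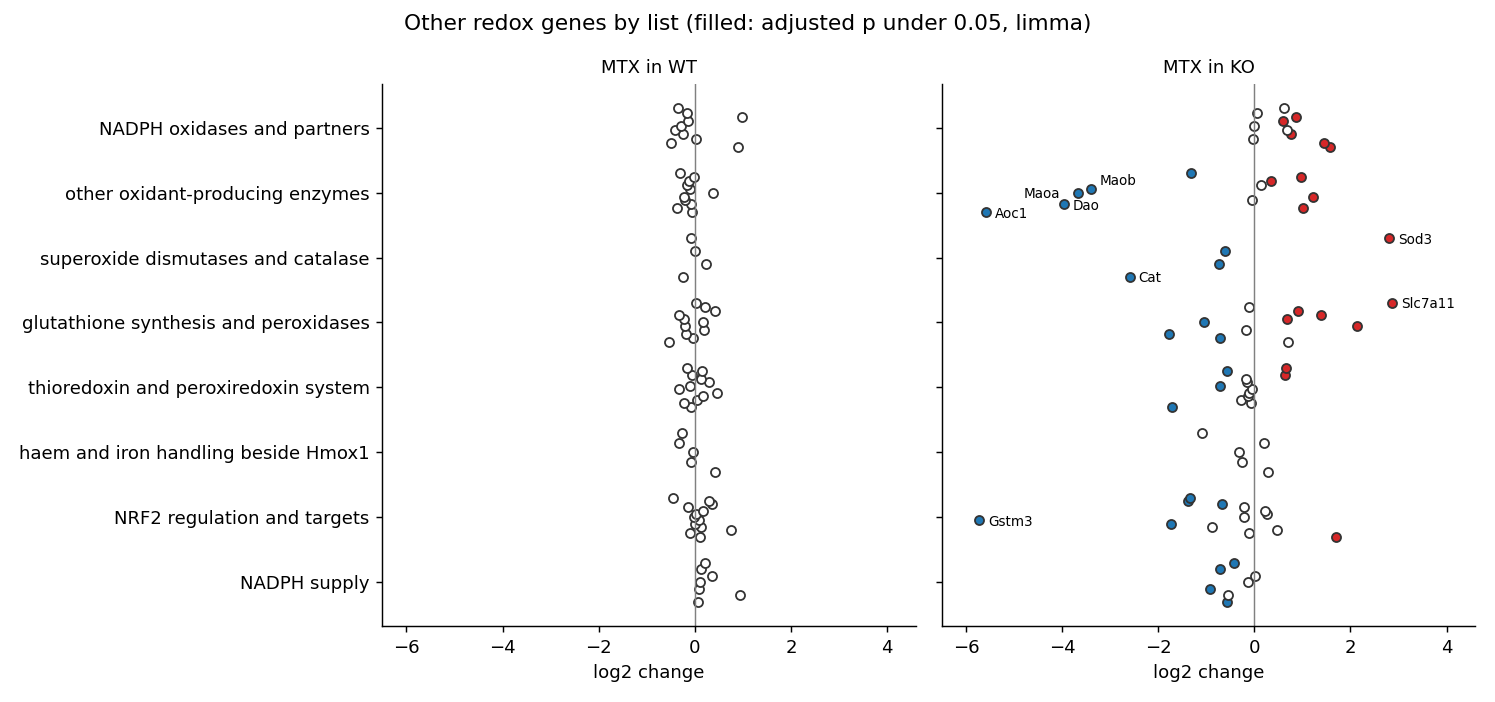
Log2 change with methotrexate of the 73 further redox genes, 1 point per gene, by list, in wild-type (left) and knockout mice (right). Filled points passed limma's test at an adjusted p under 0.05, red for higher and blue for lower, and genes changed by more than 2.3 are named. No point is filled in wild-type mice, and 41 are filled in knockout mice.

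Among NADPH oxidases and their partners, 5 of 10 rose in treated knockout mice and 0 fell. Cyba, the membrane subunit shared by several NADPH oxidases, rose by 1.57 ± 0.19 (limma adjusted p = 5.9e-05). The Cyba difference in wild-type mice was 0.90 ± 0.19 and did not pass (adjusted p = 0.126). Cybb, the catalytic subunit of the phagocyte oxidase, rose by 1.45 ± 0.20, and its response differed from that of wild-type mice by 1.94 ± 0.29 (adjusted p = 0.00044). Noxo1, the organiser protein of the NOX1 complex, rose by 0.86 ± 0.21 in knockout mice. Noxo1 differed by 0.97 ± 0.21 in wild-type mice, which did not pass (adjusted p = 0.126). Its difference between treated genotypes was -0.13 (adjusted p = 0.710), where Nox1 itself was lower in the knockout. Nox4 rose by 0.59 ± 0.15. The difference in response between genotypes did not pass for Cyba (0.67, limma adjusted p = 0.102) or Noxo1 (-0.11, adjusted p = 0.844).

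Among other enzymes that release oxidants, 4 of 11 rose and 5 fell in treated knockout mice. The falls with the smallest p-values were those of amine and amino acid oxidases, which make hydrogen peroxide as a by-product. Aoc1, the diamine oxidase of mature enterocytes, fell by 5.58 ± 0.50, and Dao, the D-amino acid oxidase, fell by 3.97 ± 0.24. Maoa and Maob, the monoamine oxidases, fell by 3.66 ± 0.20 and 3.40 ± 0.30.

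The list of further superoxide dismutases, their copper chaperone and catalase had 1 of 4 genes higher and 3 lower in treated knockout mice. Sod2, described above, is not in this list and narrowly missed the threshold. Sod3, the extracellular superoxide dismutase, rose by 2.81 ± 0.19, while Sod1, the cytosolic one, and its copper chaperone Ccs fell by 0.62 ± 0.10 and 0.73 ± 0.18. Cat, the peroxisomal catalase, fell by 2.59 ± 0.14 (limma adjusted p = 1.9e-07). Each of these 4 also differed in response between the genotypes, with adjusted p-values of 1.3e-05 for Cat, 1.8e-05 for Sod3, 0.0081 for Sod1 and 0.0192 for Ccs.

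Of the glutathione genes, 5 of 11 rose and 3 fell. Slc7a11, the cystine importer that feeds glutathione synthesis, rose by 2.86 ± 0.34 in treated knockout mice, next to the rise of Gclc. Gclm, the gene of the other subunit of that ligase, went the other way, with a change of -0.71 ± 0.15 (limma adjusted p = 0.0036). Gclm was named after its value was seen. The secreted peroxidase gene Gpx3 rose by 2.13 ± 0.12 and Gpx8, whose product resides in the endoplasmic reticulum, by 1.38 ± 0.10. Gpx4, which reduces lipid hydroperoxides in membranes, fell by 1.04 ± 0.10 (limma adjusted p = 7.2e-06), as Gpx1 did. Gpx7, named after its value was seen to complete the measured peroxidases of the lists, rose by 0.67 ± 0.15. Of these glutathione peroxidases, Gpx2, Gpx3, Gpx7 and Gpx8 thus rose while Gpx1 and Gpx4 fell.

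In the thioredoxin and peroxiredoxin system 2 of 12 rose and 3 fell, close to the 18.8% and 16.0% of all genes. Msra, a methionine sulfoxide reductase, fell by 1.71 ± 0.12, Srxn1, the sulfiredoxin, by 0.72 ± 0.17 and Txnrd2, the mitochondrial thioredoxin reductase, by 0.56 ± 0.11, while Txnrd3 rose by 0.65 ± 0.16. Of 5 measured genes of haem breakdown and iron handling beside Hmox1, 0 were called by limma in knockout mice. None had an unadjusted p under 0.05, against 8048 of all 18820 genes. One of them, Slc40a1, varied widely among untreated mice, with an SD of 2.80 in wild type and 3.06 in the knockout.

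Among NRF2, its regulators and its targets, 1 of 13 rose and 5 fell in treated knockout mice, unlike Gclc, Hmox1 and Slc7a11. Gstm3 and Gstm1, which encode glutathione S-transferases, fell by 5.72 ± 0.17 and fell by 1.74 ± 0.34, and Osgin1 fell by 1.34 ± 0.24. Abcc1, an efflux pump of glutathione conjugates, rose by 1.71 ± 0.20. Between treated genotypes, Nfe2l2, the gene of NRF2, was lower in the knockout, with a change of -1.04 ± 0.17 (limma adjusted p = 0.00044). The response of Nqo1, a quinone reductase often read as an NRF2 target, differed between genotypes by -1.66 ± 0.44 (adjusted p = 0.0174).

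Enzymes that supply NADPH, the electron donor of oxidases and reductases alike, gave 0 of 7 higher and 4 lower in treated knockout mice. Taldo1 and Tkt, of the pentose phosphate pathway, fell by 0.72 ± 0.11 and 0.42 ± 0.14, Idh1 fell by 0.56 ± 0.14 and the mitochondrial transhydrogenase gene Nnt by 0.93 ± 0.26 (limma adjusted p = 0.0146).

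Cell type markers shifted in the same mice as the redox genes. Over all genes tested, 18.8% were called higher and 16.0% lower with methotrexate in knockout mice, and the marker counts stand beside these shares. All 12 enterocyte markers fell in treated knockout mice, with a median change of -3.38, and their mean was 6.41 to 8.47 there against 11.3 to 11.7 in the other groups. Of 10 markers of all epithelial cells, 1 rose and 5 fell, and their mean was 9.69 to 10.1 against 9.91 to 10.4. Of 12 markers of macrophages and monocytes, 10 rose, with a mean of 7.84 to 8.14 against 5.45 to 6.42, and of 10 neutrophil markers 5 rose, with a mean of 4.48 to 6.62 against 3.29 to 3.48. Of 8 fibroblast markers 7 rose and 1 fell, and of 8 endothelial markers 6 rose. Of 6 colonocyte markers 4 fell, with a mean of 4.48 to 4.87 against 6.65 to 7.19, of 2 measured erythroid markers both fell, of 7 adipocyte markers 2 fell, and of 5 eosinophil markers 1 rose. The adipocyte mean was 7.76 in replicate 1 of untreated wild type against 5.56 and 5.47 in its group. In wild-type mice limma called 0 of the enterocyte, general epithelial, macrophage, neutrophil, fibroblast and endothelial markers with methotrexate, against 0.0744% of all genes. An unadjusted p under 0.05 was reached there by 0 enterocyte, 2 general epithelial, 7 macrophage, 1 neutrophil, 2 fibroblast and 6 endothelial markers. The share of all genes was 11.7%, and the median change of the macrophage markers was -0.71. The part of these shifts in the redox results was not tested.

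**Figure D5:**
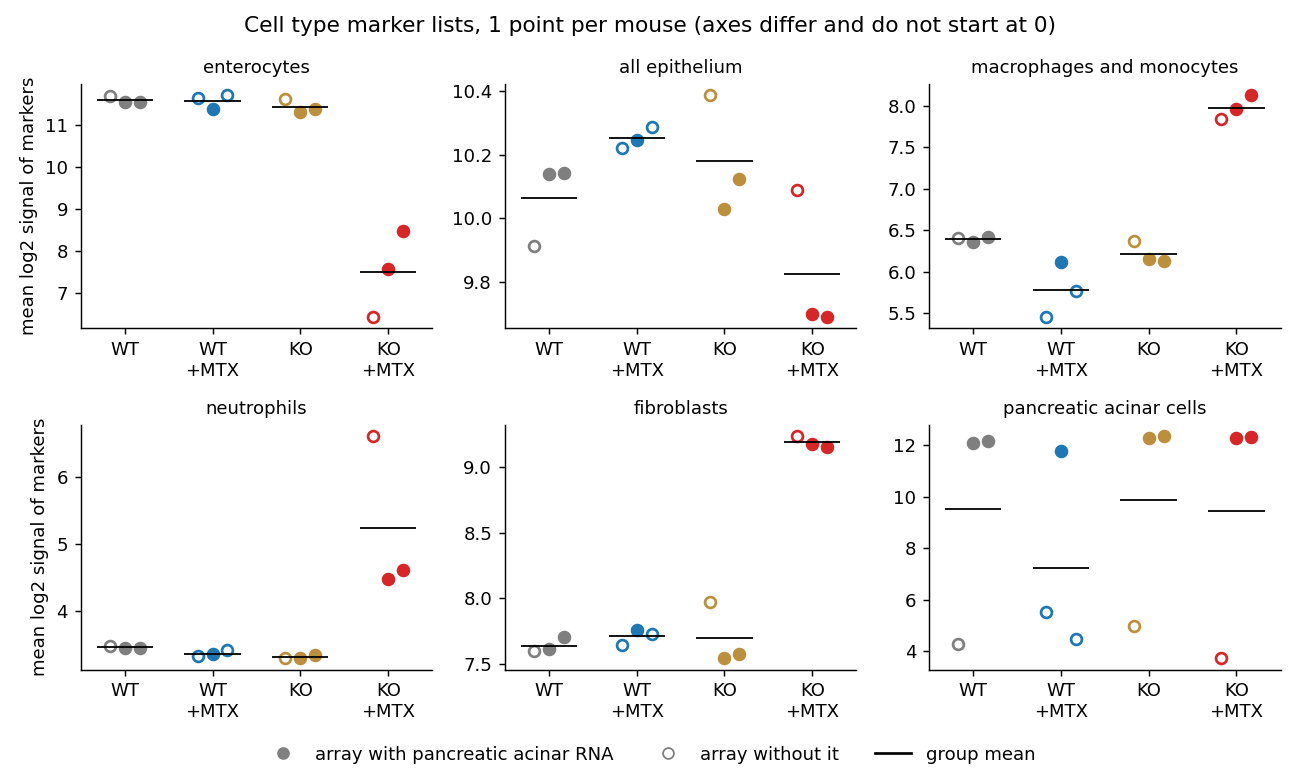
Mean log2 signal of 6 cell type marker lists, 1 point per mouse, with group means as lines; filled points are arrays with pancreatic acinar RNA. Treated knockout mice are lowest for enterocyte markers (6.41 to 8.47) and highest for macrophage, neutrophil and fibroblast markers, and the acinar list splits the arrays within each group.

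Replicate 1 of the treated knockout held the lowest enterocyte mean, 6.41, and the highest neutrophil mean, 6.62. In the same mouse Duox2, Nox1, Gpx2, Sod2 and Txnrd1 had their highest signals among treated knockout mice, while Gpx1, Hmox1 and Gclc had their lowest. Without this mouse 5 of the 10 genes were called in the methotrexate comparison in knockout mice, and the share of all genes called without it is not given.

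Genes with the pattern most like that of a redox gene were found by the root mean square difference between 2 genes' 12 log2 values, each centred on its own mean. For Duox2 they were Tspan1 (0.50), Tifa (0.51) and Pglyrp1 (0.51), where the spread of Duox2 itself by this measure was 1.08. Duoxa2, with a spread of 1.22, had Hpse2 (0.49), Lpcat4 (0.49) and Reg3b (0.50). The nearest genes to Nox1, Acadl (0.73), Pla2g5 (0.74) and Acot1 (0.77), were far from it against its spread of 1.20. Gpx2 was followed closely by Tmsb10 (0.16), D17H6S56E-5 (0.20) and Myef2 (0.20), against a spread of 0.81. Hmox1, with a spread of 1.60, had Apod (0.40), Crispld2 (0.42) and the cystine importer gene Slc7a11 (0.42). Gclc, with a spread of 0.78, had Cyp20a1, Pam and Eif4ebp1 (0.25 to 0.26), and Gpx1, with a spread of 0.31, had Usp32, Cep19 and Itpr3 (0.11 to 0.12).

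Promoter windows from RefSeq (GRCm38.p6, 250 bases before to 50 after a start) were found for 7 of the 10 genes, 9 windows in all. They were searched on both strands for the antioxidant response element TGACNNNGC, the AP-1 element, the STAT element TTCNNNGAA and the NF-kappaB consensus GGGRNWYYCC. In these letters N is any base, R is A or G, W is A or T, and Y is C or T. These motifs are in 12.4%, 7.81%, 8.3% and 4.51% of all 32851 windows. Windows of 4 of the 7 genes held a match, and those of Duox2, Gpx1 and Gpx2 held none. The Duox2 window surrounds an inner start and does not cover the outermost annotated base of the gene. Matches to the NF-kappaB consensus and to the antioxidant response element are shown, as elements known from inflammatory and antioxidant genes, with 10 bases on each side, in the reading direction of the gene, with the match in capitals. They are the NF-kappaB match of Nox1 (chrX:134111926-134111955, minus strand) and of Sod2 (chr17:13007746-13007775, plus strand), and the antioxidant response element of 1 of 3 Txnrd1 windows (chr10:82859104-82859132, plus strand). The Nox1 and Txnrd1 matches read as the motif only on the strand opposite to the one printed.
Nox1: ccctcagcagGGAAAACCCCtgtggttgtc
Sod2: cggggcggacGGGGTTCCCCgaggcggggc
Txnrd1: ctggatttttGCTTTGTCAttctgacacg
They lie 91, 83 and 92 bases before the respective start. A STAT match was found in the Sod2 window and in 2 of the 3 Txnrd1 windows.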

How the data were processed

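Total RNA of 12 jejunum samples was copied into cDNA with a whole-transcript kit (protocols in the labels) and hybridised to Affymetrix arrays. The deposited values are log2 signals per probe set. According to the submitters' processing notes the authors obtained them with RMA, a method of background correction, normalisation across arrays and averaging of probes. The RMA version and the array's genome build were not given in the sources used here. No further scaling was applied. Of 35556 probe sets, 21218 had 1 gene symbol, 1881 several and 12457 none. Of the 18820 genes left, 1386 had more than 1 probe set and were read by the brightest. Arrays give no read depth, and their number limits the precision.

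All 12 arrays were fitted together with limma's lmFit and eBayes (limma 3.58.1, R 4.3.3, 1 mean per group, 8 residual degrees of freedom), with Benjamini-Hochberg adjustment over all genes and a threshold of 0.05. The fit was tested on simulated data. Values after ± are standard errors for changes and SD for group means, and p-values measure the spread between the mice within groups. Named genes were all 10 redox genes, up to 4 called genes with the smallest p per list and comparison, and the 3 most similar patterns of each called gene, without predicted genes. The redox genes and lists were chosen with earlier results of these data known. The arrays with and without acinar RNA (mean above or below 8) were compared after the data had been seen.

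Mice with the same replicate number deviated together from their group means in both pairs of groups that hold acinar RNA in replicates 2 and 3: correlations were 0.29 to 0.50 between the knockout groups and 0.50 to 0.67 between the untreated groups. For replicates 1 and 2 the correlations were 0.29 and 0.53 between the wild-type groups, and 0.12 and 0.25 between the treated groups. For replicate 3, which had no acinar RNA in treated wild type only, they were -0.49 and -0.15. No label says what a number marks.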

Additional observations from a re-analysis of the deposited data

Results flagged for a closer look

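The response to methotrexate differed between knockout and wild-type mice for 3 of the 10 redox genes by limma's test of the difference itself. The response of Hmox1 was larger in knockout mice by 3.00 ± 0.63 (SE) on the log2 scale (adjusted p = 0.0047), with all 3 treated knockout mice above the other 9. The response of Gpx2 was larger by 1.44 ± 0.33 (adjusted p = 0.0082). That of Gpx1 was -0.81 ± 0.16 (adjusted p = 0.0036), with treated wild-type mice above and treated knockout mice below all untreated mice. Enterocyte, macrophage and fibroblast markers shifted in the treated knockout mice too, and their part in these differences was not tested.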

How the results depend on the processing

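Gpx2 and Hmox1 kept their calls in knockout mice, between treated genotypes and in the difference in response under every alternative run for them, as did Gclc in the first and second of these. Hmox1 ranged from 2.51 to 3.33 in knockout mice, Gpx2 from 1.77 to 2.29 and Gclc from 1.16 to 1.64. The difference in response of Gclc passed in 7 of 23 alternatives, among them the replicate block (1.32, adjusted p = 0.0148) and the acinar signal as a covariate (1.13, adjusted p = 0.0044). The replicate block, fitted on all 12 arrays, left 6 of the 10 redox genes called in knockout mice and changed no other call of a redox gene; the fit of the knockout groups alone is given with Gpx1. A log2 change of at least 1 left 22 of the 41 further redox genes in knockout mice, 25 of 48 between treated genotypes and 21 of 34 for the difference in response. Array weights called 6 redox genes and 8 further genes in wild-type mice and 6 redox genes for the difference in response, against 9.67% and 39.7% of all genes. The arrays with acinar RNA, where treated wild type is 1 mouse assumed to vary like the others, called 3 and 8 in wild-type mice, against 4.44% of all genes. Leaving out 1 mouse called 0 to 2 further genes in wild-type mice, the 2 without replicate 1 of the treated knockout. For the replicate block, the log2 change of at least 1 and the mice left out, the share of all genes called is not given. Those counts therefore do not show whether redox genes differ from other genes.

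Sign changes were seen only for values that had not passed the test, and the cause was not tested. With methotrexate in wild-type mice, Gclc was -0.022 after quantile normalisation and -0.064 with array weights, and -0.32 to 0.27 with 1 mouse left out. Hmox1 was 0.24 with the acinar covariate, 0.40 on the arrays with acinar RNA and -0.26 to 0.22 with 1 mouse left out. Between untreated genotypes, Sod2 was -0.00060 after quantile normalisation, -0.0027 after centring, -0.0056 on the arrays with acinar RNA and -0.057 to 0.11 with 1 mouse left out. Duox2 was -0.11 with array weights, -0.53 on the arrays with acinar RNA and -0.27 to 0.68 with 1 mouse left out, and Duoxa2 was -0.50 and -0.35 to 0.49. Txnrd1 was 0.0054 with array weights and -0.17 to 0.058 with 1 mouse left out, and Gpx1 was -0.083 to 0.034. On the 5 arrays without acinar RNA, Gpx2 was 0.28 and Hmox1 -0.12 between untreated genotypes, Txnrd1 was 0.23 with methotrexate in knockout mice, Nos2 was 0.14 between treated genotypes, and the differences in response were 0.14 for Nox1 and 0.29 for Nos2. That fit holds 1 mouse in 3 of the groups, which were assumed to vary like the others. Nox1 in untreated mice was near the low end of the array, so a fold from it may be understated. The fits of only the groups compared were not run for the difference in response, which uses all 4 groups.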
